A study of Mus musculus with 13 samples.

Results

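The difference between implantation sites of rat embryos and of mouse embryos, both carried in mouse uteri, was compared between day 7 and day 9 of pregnancy. The members were chosen by design and not by their values: they are the 8 of 13 Affymetrix Mouse430_2 arrays whose titles name mouse or rat embryos transferred without the other species, and all 45037 probe sets that are not AFFX controls, of 45101 on the array. These probe sets named 18193 genes. The quantity tested was the interaction, which is the rat minus mouse difference on day 9 minus the same difference on day 7. A positive interaction means that rat sites gained on mouse sites between the days, and a negative one that they lost.

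The tissue was the whole implantation site of female ICR mice, with the embryo inside it. Per the labels' protocols, all recipients were on day 3 of pseudopregnancy at transfer. The transferred mouse embryos were collected on day 4 of their own pregnancy, and the transferred Wistar rat embryos on day 5. There were 2 arrays for each of 4 groups, namely mouse sites of day 7, rat sites of day 7, mouse sites of day 9 and rat sites of day 9. The other 5 arrays hold rat sites from uteri that received embryos of both species, 3 of day 7 and 2 of day 9, and they entered only the shared estimate of the spread and the descriptions marked as such. Nothing in the labels ties the 2 arrays of a group to different animals. The p-values therefore rest on a spread between samples that may be only technical. With 2 arrays a group, the number of arrays limits the precision.

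As background, an implanting rodent embryo triggers decidualisation, in which stromal cells of the uterus enlarge. These cells secrete prolactin-family hormones and bone morphogenetic proteins, and they express metallothioneins. The lining epithelium around the embryo is lost, trophoblast giant cells of the embryo invade, and uterine natural killer cells gather. Acute inflammatory genes, prostaglandin synthesis and matrix metalloproteinases act at the start of attachment, and interferon gamma made by natural killer cells later induces a family of GTPases that defend cells against intracellular parasites.

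Signals are the deposited MAS5 intensities, and differences are given as log2(signal + 57.1), where 57.1 is the 25th percentile of all values. This scale understates the change of dim genes, and a signal under 57.1 was read as low and not ranked. Each gene was represented by 1 probe set. The probes match mouse sequence, so a transcript of the rat embryo can bind them poorly. In whole tissue, fewer cells of a type and less RNA per cell cannot be told apart. The uterine label was borne out by its markers on all 8 arrays: the progesterone receptor gene Pgr read 5876.5 to 10707.9, the oestrogen receptor gene Esr1 3946.2 to 7415.3, and the filament genes Vim and Des, made by decidual stroma, read at least 13078.4 and 12426.7. Prl3d1, a trophoblast hormone gene, had no probe set with that symbol alone.

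Some arrays stood apart from the rest. The 3′ to 5′ ratio of the Gapdh control probe sets, a measure of RNA integrity, was 1.54 and 1.44 in mouse sites of day 7 and 2.56 to 4.07 on all other arrays. The same ratio for the Actb control probe sets ran the other way. It was 3.47 and 3.71 in mouse sites of day 7 and 2.36 to 3.34 on all other arrays. The control probe set for the middle of 18S ribosomal RNA read 6737.2 and 6209.4 in rat sites of day 9, and 522.4 to 1933.1 elsewhere. In rat sites of day 7, 3 of the 9 probe sets for the histocompatibility gene H2-D1 read 1545.5 to 1985.1, against at most 362 on any other array, while the brightest H2-D1 probe sets were lower there than in mouse sites. Tmem14c read 140 and 119.4 in rat sites of day 7 and 603.1 to 1565.5 on the other 11 arrays. Runs, called wash runs here, were inferred from the recorded hybridisation times, with a new run after a gap of over 30 minutes. No label names them. The mouse and rat sites of day 7 without co-transfer shared 1 inferred run. Mouse and rat sites of day 9 fell in different inferred runs, so on day 9, and in the interaction, inferred run and embryo species cannot be told apart. Neither shared the run of day 7. In the change from day 7 to day 9 within either kind of site, day and inferred run therefore cannot be told apart. The part of these differences in the results below was not tested.

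The difference changed with the day for 5837 of the 45037 probe sets (13%) in limma's moderated test at an adjusted p under 0.05 (Benjamini-Hochberg). At the gene level 3205 of 18193 genes (17.6%) were called, 1584 with a positive interaction (8.71%) and 1621 with a negative one (8.91%). The median interaction over all genes was -0.02. The rat minus mouse difference itself was called for 1766 genes (9.71%) on day 7 and for 3239 (17.8%) on day 9, with 8.78% of genes higher and 9.02% lower in rat sites on day 9. The day 7 count rested on few arrays: leaving out replicate 1 or 2 of the mouse sites of day 7 gave 962 and 769, and leaving out replicate 1 or 2 of the rat sites of day 7 gave 771 and 790. Of the called genes, 753 differed on both days in opposite directions.

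**Figure D1:**
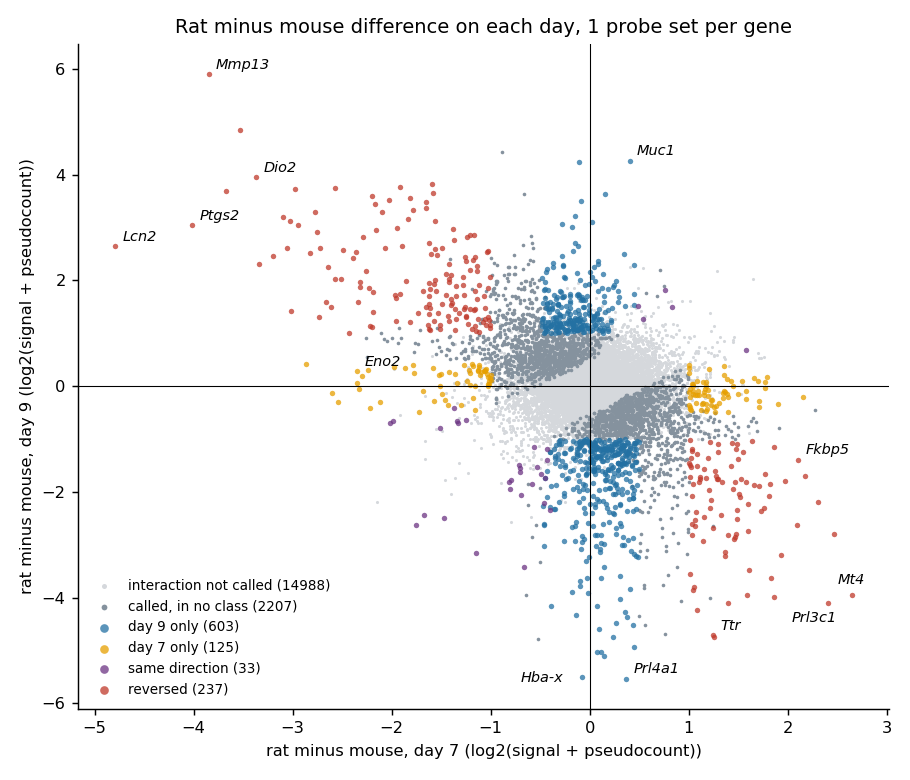
Rat minus mouse difference of each gene on day 7 (horizontal axis) and day 9 (vertical axis), both on the log2(signal + pseudocount) scale, 1 point per gene, coloured by class with the number of genes in the key. The 237 reversed genes lie in the upper left and lower right corners, and the 603 genes that differ on day 9 only along the vertical axis. The same direction class has 33 genes and leaves out genes without a called interaction.

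Genes were sorted into classes by these calls and by size. A gene was called reversed if both days' differences were called, opposite in sign and each at least 1. It was placed in day 9 only if the day 9 difference was called and at least 1 while the day 7 difference was not called and was under 0.5, and in day 7 only by the same rule with the days exchanged. There were 148 genes reversed from lower to higher in rat sites (0.813% of genes) and 89 reversed from higher to lower (0.489%). With a pseudocount 4 times as large there were 85 and 52. Day 9 only held 241 genes higher in rat sites by the interaction (1.32%) and 362 lower (1.99%). Day 7 only held 57 genes with a positive interaction (0.313%) and 68 with a negative one (0.374%). At the thresholds, Ackr3 was just inside the reversed class at -1.004 on day 7 and 1.15 on day 9, and Ehd3 just outside at 0.99 and -2.76. For day 9 only, Cdon was just inside with a day 7 difference of 0.497 and Lamc1 just outside with 0.5001. For day 7 only, Gadd45b was just inside with a day 9 difference of -0.499 and Ablim1 just outside with -0.506.

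Most reversals had a called change in both kinds of site. In these changes, day and inferred run cannot be told apart. Signals changed from day 7 to day 9 for 4621 genes (25.4%) in mouse sites, where 12.7% fell, and for 4349 genes (23.9%) in rat sites, where 11.7% fell. Of the 148 genes reversed from lower to higher, 113 fell in mouse sites and rose in rat sites, 30 rose in rat sites with no call in mouse sites, and 4 fell in mouse sites with no call in rat sites. The last one rose in both. Of the 89 genes reversed from higher to lower, 63 rose in mouse sites and fell in rat sites. The genes that were lower in rat sites on day 9 only were mostly genes that rose in mouse sites: 155 of 362 rose there with no call in rat sites, and 86 rose there and fell in rat sites. Among the 241 genes higher on day 9 only, 111 rose in rat sites with no call in mouse sites.

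**Figure D2:**
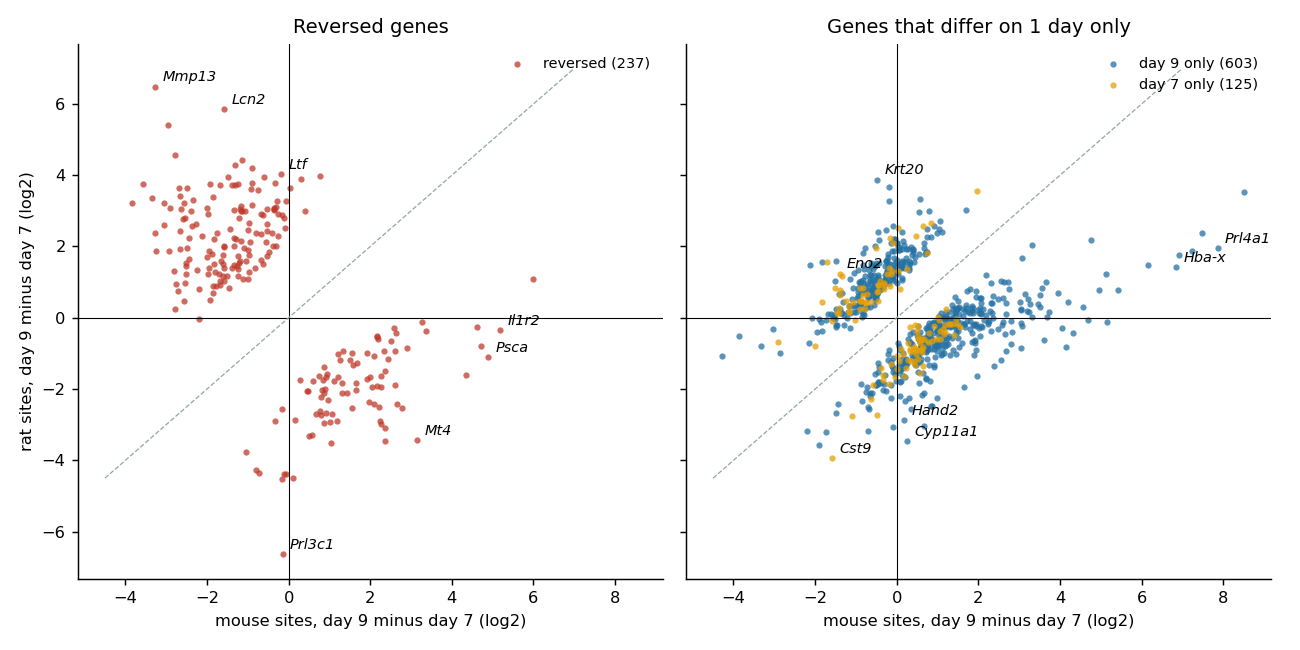
Change from day 7 to day 9 (log2) in mouse sites (horizontal axis) and in rat sites (vertical axis), 1 point per gene, for reversed genes (left) and for genes that differ on 1 day only (right). The dashed line marks equal change; the 113 reversed genes that fell in mouse sites and rose in rat sites lie at the upper left, and Prl4a1 and Hba-x lie far to the right because they rose in mouse sites.

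The largest reversals from lower to higher were in secreted enzymes, epithelial products and inflammatory genes. Mmp13, which encodes an interstitial collagenase, read 871.2 and 910.5 in mouse sites of day 7, 6.7 and 11 in rat sites of day 7, 44.8 and 38.3 in mouse sites of day 9, and 6102.9 and 5571.9 in rat sites of day 9. Rat sites were thus below mouse sites on day 7 and above them on day 9, with no overlap on either day. Reversed genes were chosen on these same arrays for differences of at least 1 on both days. Lack of overlap, here and in the reversed genes below, can follow from that choice and adds no support. Its interaction was 9.75 ± 0.27 (SE; adjusted p = 1.3e-07), made of -3.85 on day 7 and 5.90 on day 9. Mmp10, for the matrix protease stromelysin-2, had 1292 and 1390.3 against 36.9 and 98.4 on day 7, then 61.2 and 217.6 against 5174.3 and 5077.1 on day 9 (interaction 8.38 ± 0.68). Lcn2 encodes lipocalin-2, a siderophore-binding protein of epithelium and neutrophils. It gave 7509.1 and 7531 in mouse sites and 241 and 194.1 in rat sites of day 7. On day 9 it gave 2522.7 and 2425.3 in mouse sites and 15976.9 and 15497.7 in rat sites, an interaction of 7.43 ± 0.34.

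Sprr2f, a small proline-rich protein of uterine epithelium, went from 11980.6 and 12448.6 (mouse) and 874.2 and 941 (rat) on day 7 to 1692 and 1744.3 (mouse) and 23406.1 and 22601.9 (rat) on day 9. Dio2, the deiodinase that activates thyroid hormone, read 7562.6 and 7358.6 in mouse sites and 654.1 and 685.8 in rat sites of day 7, against 617.1 and 534.6 and then 9629 and 9865.3 on day 9. In both genes mouse sites of day 7 and rat sites of day 9 were high, and the other groups were low without overlap. Their interactions were 7.37 ± 0.23 and 7.33 ± 0.15. Of 2 other Dio2 probe sets, 1 was called in the same direction and none in the opposite one.

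Ptgs2 encodes the inducible cyclooxygenase that makes prostaglandins at the implantation site. Its signals were 5031.1 and 5473.3 in mouse sites and 224.7 and 326.2 in rat sites of day 7, then 395.6 and 247.3 in mouse sites and 3010.2 and 2992 in rat sites of day 9. The interaction was 7.06 ± 0.32 (adjusted p = 1.09e-06). Tnc, for the matrix glycoprotein tenascin C, had an interaction of 6.69 ± 0.25, and Oxtr, the oxytocin receptor gene of myometrium and epithelium, 6.32 ± 0.32. Tnc read 4731.6 and 4575.8 against 586.6 and 501.2 on day 7 and 341.4 and 482.4 against 6109.8 and 5991 on day 9. Oxtr read 2202 and 2267.1 against 387 and 275 on day 7 and 280.9 and 316.7 against 4583 and 4854.3 on day 9. Neither gene's groups overlapped on either day. The other Oxtr probe set was not called.

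**Figure D3:**
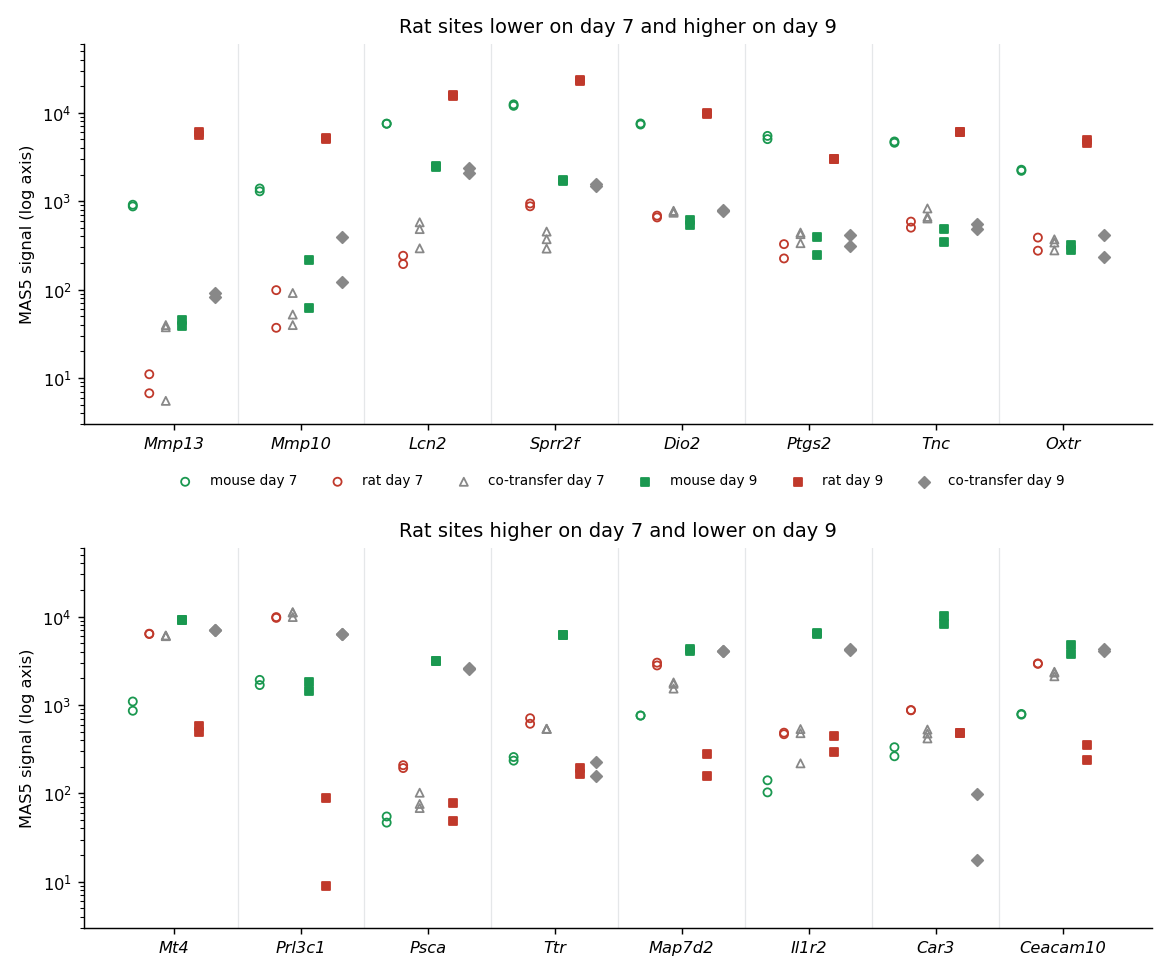
MAS5 signal on each array (log axis) of the 8 genes with the largest positive interaction among reversed genes (top) and the 8 with the largest negative one (bottom), 1 point per array, by group, with rat sites after co-transfer in grey. In the top row mouse sites of day 7 and rat sites of day 9 are high; for Mt4 in the bottom row, rat sites of day 7 (6398.7 and 6342.7) and mouse sites of day 9 (9041.9 and 9165.3) are high.

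The interferon-inducible GTPases of the IRG and GBP families moved together. All 10 measured members had a called positive interaction, 9 of them reversed, with a median of 4.23 (day 7 -1.56, day 9 2.64), where 8.71% of all genes were called in that direction. All 10 were called lower in rat sites on day 7, against 4.96% of all genes, and higher on day 9, against 8.78%. Iigp1, which acts at the vacuole of intracellular parasites, read 4005.5 and 3705.4 in mouse sites and 1034.7 and 927.6 in rat sites of day 7, then 1149.3 and 829.4 and 13954.8 and 13969 on day 9. Igtp, a regulatory member of the same family, read 2477 and 2302.1 against 550.6 and 427.9 on day 7, and 1052.4 and 813.5 against 10915 and 10244.8 on day 9. Rat sites of day 9 were therefore the highest of the 4 groups and rat sites of day 7 the lowest in both genes apart from 1 mouse array of day 9 for Iigp1. The interactions were 5.68 ± 0.23 and 5.61 ± 0.24, and Gbp6, a guanylate-binding protein gene, had 5.55 ± 0.60. Irgm1, the member outside the reversed class, had differences of -0.81 on day 7 and 2.24 on day 9. Members of these families resemble each other in sequence, so a probe set can also read a relative.

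The promoters of these genes are shown because so many members moved together. RefSeq sequences (GRCm38.p6, 250 bases before to 50 after the start) were held for 7 of the 10 genes. Searched on both strands, the interferon-stimulated response element core, GAAA, any 2 bases and GAAA, occurred in 6 of the 7, against 3.44% of 32851 promoters of the same length. The gamma-activated site core TTCNNNGAA, to which STAT factors bind, occurred in 3, against 8.3% of promoters. The 3 with both are printed, on the plus strand, with matches in capitals: Igtp at chr11:58199306-58199605, Irgm2 at chr11:58214727-58215026 and Gbp7 at chr3:142530086-142530385. A match of these letters is a description and not a shown binding site. Igtp and Irgm2 are neighbours and carry the same pair of cores at the same spacing.
Igtp: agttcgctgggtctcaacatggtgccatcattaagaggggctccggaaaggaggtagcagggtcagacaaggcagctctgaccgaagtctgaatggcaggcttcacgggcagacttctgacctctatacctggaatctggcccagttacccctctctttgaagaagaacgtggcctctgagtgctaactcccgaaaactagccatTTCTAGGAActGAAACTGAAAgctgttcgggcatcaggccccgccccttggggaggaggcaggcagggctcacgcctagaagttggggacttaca
Irgm2: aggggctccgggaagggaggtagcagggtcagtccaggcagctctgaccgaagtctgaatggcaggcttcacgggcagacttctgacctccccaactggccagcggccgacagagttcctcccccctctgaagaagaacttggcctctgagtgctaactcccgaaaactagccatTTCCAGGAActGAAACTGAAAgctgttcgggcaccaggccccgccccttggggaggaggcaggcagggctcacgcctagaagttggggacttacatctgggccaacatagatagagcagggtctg
Gbp7: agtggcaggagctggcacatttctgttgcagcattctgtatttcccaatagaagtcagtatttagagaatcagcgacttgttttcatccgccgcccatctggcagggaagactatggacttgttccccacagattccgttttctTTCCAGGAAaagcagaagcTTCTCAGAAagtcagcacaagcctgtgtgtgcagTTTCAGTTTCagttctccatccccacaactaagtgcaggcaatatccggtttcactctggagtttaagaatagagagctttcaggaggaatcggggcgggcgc

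Most other interferon-induced genes gained in rat sites too. Of 32 measured genes of the antiviral response, 22 had a called positive interaction and 1 a negative one, with a median of 1.29. Over all genes 8.71% were called positive and 8.91% negative, shares to set beside the counts of every list below. Day 9 only held 11 of the 32, all with a positive interaction, against 1.32% of all genes. Oasl2, an antiviral oligoadenylate synthetase-like gene, read 472.2 and 468.5 in mouse sites and 335 and 320.4 in rat sites of day 7. On day 9 it read 750.1 and 684.9 in mouse sites and 2647.7 and 3334.9 in rat sites, an interaction of 2.42 ± 0.18 (adjusted p = 2.23e-05). The difference was -0.46 on day 7 (not called, adjusted p = 0.0602) and 1.97 on day 9. Zbp1, a sensor of viral nucleic acids, had an interaction of 2.88 ± 0.28. Ifng itself, the gene of interferon gamma, was dim, at 3.1 to 78.7 in 6 arrays and at 212.7 and 231.7 in rat sites of day 9, and its interaction of 1.03 was not called (adjusted p = 0.266). Samhd1, a nucleotide hydrolase that restricts viruses, was the exception to the direction: it read 1558.7 and 1638.6 against 3900.5 and 3450.7 on day 7, and 5823.1 and 6661.4 against 1679.5 and 1970.9 on day 9.

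Antigen presentation genes followed the interferon genes in direction. For MHC class I, 11 of 16 measured genes had a called positive interaction and none a negative one (median 1.24), led by the immunoproteasome subunit Psmb9 at 2.81 ± 0.22 and the class I transactivator Nlrc5 at 2.73 ± 0.21. Class II genes had 6 positive and 1 negative of 11 (median 1.34), with H2-Aa, an alpha chain, at 1.89 ± 0.17. The invariant chain Cd74, which was not called on day 7, read 1730.1 and 1998.9 in mouse sites and 5208.8 and 4918.4 in rat sites of day 9. H2-D1 entered the class I list through its brightest probe set, which had 1.47. The 3 H2-D1 probe sets that stood apart in rat sites of day 7 had called interactions in the opposite direction, at -4.12, -2.47 and -4.29.

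Genes of the uterine epithelium and its glands gained in rat sites. Of 30 measured, 22 had a called positive interaction and 1 a negative one (Krt23), with a median of 2.45, from -0.37 on day 7 to 1.92 on day 9. The summed signal of the list was 134979.2 and 133123.1 in mouse sites and 84852.9 and 82222.6 in rat sites of day 7, and 46151.3 and 44355 against 185017.4 and 180312 on day 9. Cldn7, a tight junction claudin, was reversed, with 1833.8 and 1738.7 against 451 and 466 on day 7 and 703.9 and 751.5 against 7117.1 and 6775.9 on day 9 (interaction 5.00 ± 0.14). Keratin 20 and mucin 1 appeared on day 9 only. Krt20 was at most 57.3 in every other group without co-transfer and read 1339.7 and 1180 in rat sites of day 9. Muc1, the cell-surface mucin lost from receptive epithelium, read 63.2 to 276.3 on day 7, 65.3 and 88.6 in mouse sites of day 9, and 2782 and 2254.2 in rat sites of day 9. Ltf, the oestrogen-induced lactoferrin gene, was reversed with no called change in mouse sites: 1738.5 and 1382.7 there on day 7 and 1487.1 and 1244.3 on day 9, against 271.1 and 257.8 and then 5039.2 and 5305.5 in rat sites. The remaining leaders by rule of day 9 only were Trim12c (3.59 ± 0.33), a tripartite-motif gene, Alox12e (3.48 ± 0.54), an epidermal lipoxygenase gene, and Lzts3 (3.38 ± 0.37). The other Trim12c probe set was not called.

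Of 29 measured genes of neutrophils and acute inflammation, 10 were reversed from lower to higher in rat sites and 1, Il1r2, from higher to lower. The list had 14 called positive and 2 called negative interactions (median 1.11, day 7 -0.94, day 9 0.74), Lcn2 and Ptgs2 leading it. The median interaction was 0.51 with a pseudocount 4 times as large and 2.497 under the low-value filter, which tests fewer genes. Il1b, S100a9 and S100a8 were picked after their values were seen. Il1b, for interleukin 1 beta, read 1420.7 and 1227.7 against 234.2 and 110.4 on day 7 and 363.3 and 231.5 against 1626.6 and 1586.3 on day 9. S100a9, for a calcium-binding protein of neutrophils, was reversed too (4.25 ± 0.31), but its partner S100a8 read 20263.2 and 20834 in mouse sites and 3311.9 and 3244.8 in rat sites of day 9 and had a negative interaction of -0.88. The neutrophil granule genes Elane, Mpo, Camp and Ngp were not called. Il1r2, the decoy receptor that binds interleukin 1 without signalling, ran the opposite way to Il1b. It read 140.4 and 102.5 in mouse and 485.5 and 466.3 in rat sites of day 7, then 6357.5 and 6506.5 and 444.6 and 295.6 on day 9 (interaction -5.53 ± 0.46).

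Several matrix proteases gained in rat sites. Of 23 measured genes of proteases and their inhibitors, 11 had a called positive and 1 a called negative interaction (median 0.75, but 0.48 with the larger pseudocount and 1.59 under the filter), and none of the 4 Timp genes, which encode inhibitors of metalloproteinases, was called. Mmp13, Mmp12, Mmp3 and Mmp10 stand close together on chromosome 9 in RefSeq, with Mmp8 and Mmp7 beside them. The first 4 had interactions of 9.75, 4.06, 4.29 and 8.38, Mmp7 had 2.55 and Mmp8 0.02, the last not called. Adamts4, an aggrecan-cleaving protease gene, was reversed (4.82 ± 0.30). Adamts5, a related protease and the negative call, was picked after its values were seen. It read 800 and 866.4 against 675.5 and 693.7 on day 7 and 10430.7 and 12159.8 against 1522.7 and 1339.6 on day 9. Of 38 extracellular matrix genes, 14 were positive and 4 negative (median 0.46). Thbs1, for thrombospondin 1, was reversed (5.66 ± 0.21), and Lamc1, a laminin chain, was lower on day 9 (interaction -2.20 ± 0.19).

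Genes of the hypoxia response and of the immediate early response were low in rat sites on day 7. Of 34 hypoxia and glycolysis genes, 22 had a called positive interaction and none a negative one (median 1.06), and 25 were lower in rat sites on day 7, against 4.96% of all genes. On day 9, 7 of the 34 were lower, against 9.02% of all genes, and 8 were higher, against 8.78%. In mouse sites 26 of the 34 had fallen, against 12.7% of all genes. Egln3, an oxygen-sensing prolyl hydroxylase, read 1330.1 and 1281.1 against 235.2 and 189.6 on day 7 and 444.7 and 441.2 against 1331.8 and 1555.7 on day 9 (3.92 ± 0.18). Ddit4, an inhibitor of mTOR signalling (3.35 ± 0.24), and Pfkfb3, an activator of glycolysis (3.05 ± 0.35), were reversed too. The immediate early list had 17 positive and 2 negative calls among 31 (median 1.15), with Ier3 at 4.60 ± 0.17, the transcription factor Egr1 at 3.12 ± 0.19 and the nuclear receptor Nr4a3 at 3.12 ± 0.47. The mouse sites of day 7, where both lists were highest in summed signal, are also the arrays with the low Gapdh ratio and the high Actb ratio.

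The inducible heat shock genes Hspa1a and Hspa1b were reversed. Hspa1a read 3252.9 and 3721.9 against 460.2 and 461.5 on day 7 and 537.1 and 471.5 against 5854.2 and 5069 on day 9 (6.07 ± 0.21), and Hspa1b had 3.25 ± 0.17. These copies are nearly alike, so their probe sets may read each other. Of 18 heat shock genes, 4 were positive and 3 negative (median 0.14), so 38.9% were called, against 17.6% of all genes. Hspb8, a small heat shock protein gene, was among the negative ones at -1.47 ± 0.14.

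In the opposite direction, 3 of the 4 metallothionein genes were higher in rat sites on day 7 and lower on day 9. Mt4, a metallothionein of stratified epithelium, read 859.2 and 1093.9 in mouse sites and 6398.7 and 6342.7 in rat sites of day 7. On day 9 it read 9041.9 and 9165.3 in mouse sites and 584.8 and 489 in rat sites. The groups did not overlap on either day, and the interaction was -6.60 ± 0.19 (adjusted p = 1.3e-07). Mt3 had -3.87 ± 0.52. Mt1, the widespread zinc- and glucocorticoid-induced form, had -2.68 ± 0.17, with 4679.4 and 4027.1 against 12256.8 and 12135.8 on day 7 and 18141.4 and 21011.8 against 8460.6 and 8498.7 on day 9. Mt2 belonged to the day 7 only class (-1.57 ± 0.18). All 4 were brighter in rat than in mouse sites on day 7. Of the 8 metallothionein and zinc transport genes, 6 were called negative and none positive (median -2.06, against 8.91% called negative over all genes), and 4 were reversed, Slc30a2, a zinc exporter, among them.

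The 4 metallothionein genes are direct neighbours on chromosome 8, in the order Mt4, Mt3, Mt2 and Mt1. Their promoters are printed because neighbours moved together by different amounts. Capitals mark matches to TGCNCNC. This pattern is looser than the metal response element core TGCRCNC (R is A or G), to which the zinc-sensing factor MTF1 binds. Some matches, such as TGCCCTC in Mt4, lie outside that core. The counts are therefore a description of letters and not of binding sites. On both strands there were 5 matches in Mt4, where 2 adjoin, 3 in Mt3, 6 in Mt2 and 3 in Mt1. At least 3 matches occurred in 7.1% of all promoters and at least 5 in 0.697%, while 51% held at least 1. A single match of this short, loose pattern is thus common. The sequences are RefSeq's, GRCm38.p6, plus strand, at chr8:94136954-94137253, chr8:94152357-94152656, chr8:94172368-94172667 and chr8:94178839-94179138.
Mt4: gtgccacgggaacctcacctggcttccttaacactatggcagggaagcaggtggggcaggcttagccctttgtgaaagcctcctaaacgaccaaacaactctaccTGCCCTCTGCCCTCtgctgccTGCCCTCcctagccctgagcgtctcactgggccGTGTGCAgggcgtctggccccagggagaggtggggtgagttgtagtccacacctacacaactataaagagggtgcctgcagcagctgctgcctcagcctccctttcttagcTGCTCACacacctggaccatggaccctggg
Mt3: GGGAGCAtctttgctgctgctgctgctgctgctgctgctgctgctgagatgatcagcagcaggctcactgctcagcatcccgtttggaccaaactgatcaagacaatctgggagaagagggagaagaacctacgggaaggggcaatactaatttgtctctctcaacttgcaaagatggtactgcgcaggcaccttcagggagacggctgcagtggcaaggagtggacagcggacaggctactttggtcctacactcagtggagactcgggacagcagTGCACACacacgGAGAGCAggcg
Mt2: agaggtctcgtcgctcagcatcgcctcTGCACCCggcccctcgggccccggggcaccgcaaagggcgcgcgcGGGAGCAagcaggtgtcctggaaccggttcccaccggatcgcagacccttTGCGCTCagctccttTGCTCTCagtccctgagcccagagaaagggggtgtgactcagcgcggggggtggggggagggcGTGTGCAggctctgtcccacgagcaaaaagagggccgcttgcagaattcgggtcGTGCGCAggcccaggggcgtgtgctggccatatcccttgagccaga
Mt1: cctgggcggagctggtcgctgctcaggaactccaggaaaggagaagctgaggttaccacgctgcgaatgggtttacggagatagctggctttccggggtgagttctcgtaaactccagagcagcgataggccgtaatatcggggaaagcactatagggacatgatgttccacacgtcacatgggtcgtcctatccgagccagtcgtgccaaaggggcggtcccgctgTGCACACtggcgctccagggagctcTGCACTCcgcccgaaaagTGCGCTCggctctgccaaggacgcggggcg

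Decidual stroma genes were mixed in direction. Of 28 measured, 14 were called negative and 8 positive (median -0.79), 5 of them reversed from higher to lower. Prl3c1, a prolactin-family gene, read 1677.9 and 1921.1 against 9660.1 and 9862 on day 7, and 1822.7 and 1446.1 against 89.2 and 9 on day 9. Mouse sites had no called change, while rat sites went from the highest group to the lowest (interaction -6.50 ± 0.42). Tdo2, the tryptophan-degrading enzyme of decidua, read 10788.8 and 11188.2 against 15885.4 and 15116.3 on day 7 and 10027.8 and 10081 against 392.3 and 493.5 on day 9 (-4.84 ± 0.17). Bmp2, needed for decidualisation in mice and picked here after its values were seen, read 4851 and 4838.4 against 10499.8 and 10040.2 on day 7 and 3132.6 and 2415.3 against 488.1 and 473.1 on day 9. The stromal transcription factor genes were lower in rat sites of day 9. Hand2, a progesterone-dependent factor, read 11643.3 to 14792.3 in the other 3 groups and 1899.5 and 1906.5 in rat sites of day 9 (-3.06 ± 0.15). Hoxa10 had -2.20 ± 0.18 and Hoxa11 -1.87 ± 0.23. Pgr and Esr1, the receptors, went the other way, at 0.93 ± 0.16 and 0.88 ± 0.15, and Vim and Des were not called.

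Among steroid-related genes, Fkbp5, a cochaperone induced by progesterone and glucocorticoids, was reversed. It read 667.7 and 718.9 against 3482.6 and 2868.7 on day 7 and 2240.9 and 2353.6 against 802 and 881.3 on day 9 (-3.49 ± 0.17). Cyp26a1, which degrades retinoic acid, was reversed as well (-3.11 ± 0.28). Cyp11a1, the side-chain cleavage enzyme that starts steroid synthesis, differed on day 9 only, with 6034 and 5426.2 in mouse sites and 319.6 and 339.7 in rat sites then, against 4166.6 to 4824 on day 7 (-3.73 ± 0.16). The steroid and prostaglandin list had 10 negative and 5 positive calls among 22 (median -0.59), and hormone receptors and their targets 6 negative and 7 positive among 23 (median 0.27).

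The other large reversals to lower were in unrelated families. Psca, a surface antigen of epithelia, read 54.7 and 46.6 against 208.1 and 193.1 on day 7, and 3138 and 3148.9 against 78.6 and 48.6 on day 9 (-6.00 ± 0.22). Ttr, the thyroxine and retinol carrier made by yolk sac, read 257.4 and 234.2 against 612.2 and 707.3 on day 7 and 6178.9 and 6104.1 against 166.9 and 193 on day 9 (-5.95 ± 0.21). In these genes the day 9 difference came mainly from the rise in mouse sites. Map7d2, a microtubule-associated protein gene, had -5.84 ± 0.27, with its other probe set not called, and Ceacam10, a carcinoembryonic antigen relative, -5.46 ± 0.24. Car3, for carbonic anhydrase 3, read 10239.3 and 8227.4 in mouse sites of day 9 against 262.5 to 875.1 in the other 3 groups (-5.50 ± 0.41), and none of its 3 other probe sets was called.

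Car3 is also an adipocyte gene, and the adipocyte list moved with the mouse sites of day 9. Its 10 measured genes summed to 39361.6 and 37859.9 there and to 7956.2 to 14135.2 in the other 3 groups. Adipoq, the adipocyte hormone adiponectin, read 2044 and 1867.3 there and 27.1 to 137.4 in the other 3 groups (-4.37 ± 0.35), and Fabp4, a fatty acid carrier of adipocytes and endothelium, 17028.7 and 16871.3 against 2768.4 to 6635.7. In all, 7 of the 10 had a called negative interaction and 1, Lpl, a positive one (median -1.82). The part of fat tissue in the other genes that rose in mouse sites of day 9 was not tested.

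Placental and embryonic genes made up all 5 leaders of the day 9 only class in the lower direction. Prl4a1, a prolactin-family hormone gene of trophoblast, was at 9.9 to 41.4 on day 7 and read 14099 and 17725.1 in mouse sites and 268 and 303.9 in rat sites of day 9 (-5.90 ± 0.47). Prl7a1, of the same family, read 11350.9 and 11075.3 against 268.7 and 361.6 on day 9 (-5.38 ± 0.24), and Prl5a1 3045.6 and 2929.7 against 18.7 and 44.8 (-5.26 ± 0.42). All were at most 66.7 on day 7. In the trophoblast list, 16 of 27 measured genes were called negative and 1 positive (median -2.73, day 7 0.16, day 9 -2.13), and 12 were in day 9 only. The positive one was Krt7, a keratin that uterine epithelium also makes. The stem cell factors Cdx2, Eomes and Elf5 and the spongiotrophoblast factor Ascl2 were not called.

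Embryonic globins and yolk sac genes followed. Hba-x, the embryonic alpha-like globin, was at 12.8 to 28.5 on day 7 and read 9311.1 and 8995.5 in mouse sites and 129.1 and 166.8 in rat sites of day 9 (-5.42 ± 0.39). Hbb-bh1 (-5.10 ± 0.41) and Hbb-y (-4.99 ± 0.23), embryonic beta-like globins, behaved alike, Hbb-y reading 22417.2 and 23942.6 against 868.5 and 740.7 on day 9. Of 16 embryonic blood genes, 6 were called negative and 1 positive (median -0.57), the latter being Car2, a carbonic anhydrase that other tissues make too. Afp, the fetal plasma protein of yolk sac, read 10508.9 and 10776.5 against 234.8 and 309 on day 9 and at most 42.4 on day 7 (-5.14 ± 0.27), and 3 of its 4 other probe sets were called in the same direction. Apoa1, an apolipoprotein gene, had -4.24 ± 0.17. The yolk sac list had 10 negative and 3 positive calls among 27 (median -0.58). Of 16 genes of the embryo proper, 2 were called, a share below the 17.6% of all genes: Sox2 (-2.80 ± 0.24), a stem cell factor, and Fst (-3.02 ± 0.16), follistatin, which decidua also makes. These genes can come from the rat embryo, and poor binding of rat transcripts and a smaller embryo cannot be told apart.

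**Figure D4:**
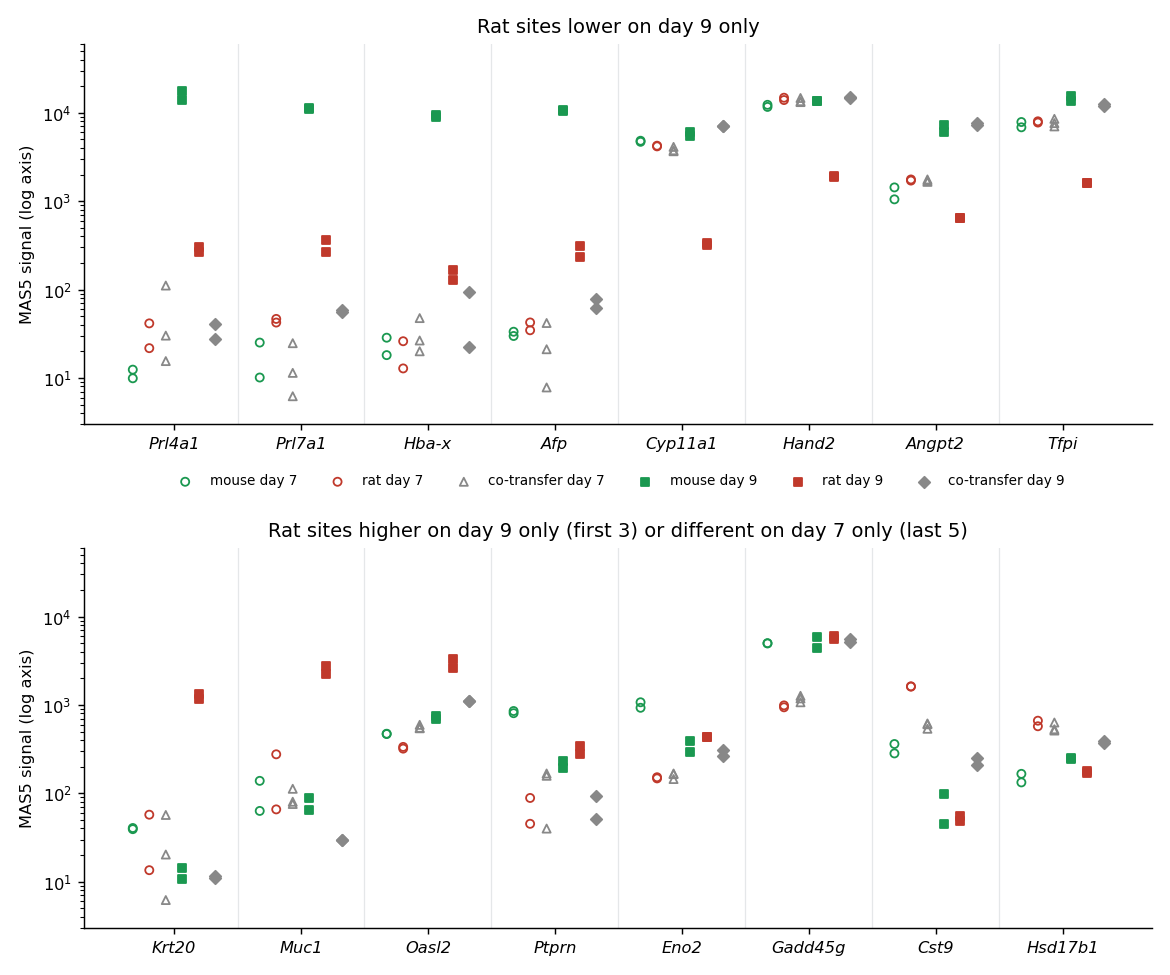
MAS5 signal on each array (log axis) of genes whose rat minus mouse difference was large on 1 day only, 1 point per array, by group, with rat sites after co-transfer in grey. Top: 8 genes lower in rat sites of day 9. Bottom: Krt20, Muc1 and Oasl2, higher in rat sites of day 9, and 5 genes that differ on day 7 only, such as Gadd45g at 4963.7 and 4998.8 in mouse sites and 988 and 940.3 in rat sites of day 7.

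A few vessel and natural killer cell genes were lower in rat sites on day 9 only. Angpt2, which loosens vessels for growth, read 1047.9 and 1430 against 1708.4 and 1759.2 on day 7 and 7260.2 and 6049.4 against 649.4 and 650 on day 9 (-3.72 ± 0.21). Cdh5, the cadherin of endothelial junctions, had -1.82 ± 0.22, whereas Vcam1, an adhesion molecule induced by inflammation, was positive at 2.83 ± 0.38. No other probe set of Angpt2, Cdh5, Vcam1 or Il2rb was called. Of 32 endothelial genes, 4 were positive and 4 negative (median 0.04), near the 8.71% and 8.91% of all genes, and Pecam1, Kdr and Tek were not called. Il2rb, a receptor chain of natural killer cells, read 1019.2 and 915.2 against 294.4 and 301 on day 9 (-1.61 ± 0.25). Gzma, a granzyme of the same cells, read 13556.3 and 12439.7 against 4269.7 and 4751.8 (-1.21 ± 0.15), and Gzmb had -1.04 ± 0.22. The natural killer list had 5 negative and no positive calls among 21 (median -0.49). Its called share was 23.8%, all negative, against 17.6% of all genes in either direction and 8.91% in the negative one. On day 9 itself, 11 of the 21 were called lower in rat sites and none higher, against 9.02% of all genes lower. On day 7, 4 were called lower and none higher, against 4.96% lower.

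The anticoagulant receptor Procr and the coagulation inhibitor Tfpi were in the same class. Procr read 17715.2 and 21571.3 against 1585.9 and 1473.7 on day 9 (-3.74 ± 0.25), and Tfpi 15644.8 and 13564.1 against 1612.1 and 1593.1 (-3.24 ± 0.19). Cfb, complement factor B, was positive (2.88 ± 0.28), and the list of 20 had 8 positive and 4 negative calls (median -0.13). Macrophage and dendritic cell genes were mixed, with 7 positive and 4 negative of 29 (median 0.35), or 37.9% called against 17.6% of all genes. Cd14, a receptor for bacterial lipid, was reversed (3.63 ± 0.22), the complement gene C1qb had 1.94 ± 0.26 and the protease Ctss 1.90 ± 0.20, while Adgre1, a macrophage marker, was not called. Among 13 T and B cell genes no interaction was called by limma at the adjusted threshold, and 1 had an unadjusted p under 0.05.

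The smooth muscle list had 11 positive and 4 negative calls among 26 (median 0.51). Below Oxtr, Cnn1, for the actin-binding calponin, read 4342.6 and 5168.7 against 2515.3 and 2683 on day 7 and 1861.6 and 1636.9 against 4534.1 and 4253.1 on day 9 (2.16 ± 0.18). Kcnmb1, a potassium channel subunit, had 1.51 ± 0.36, a call that was lost when replicate 1 of the mouse sites of day 7 (1.38, adjusted p = 0.0783), replicate 2 of the rat sites of day 7 (1.35, 0.0847), replicate 1 of the mouse sites of day 9 (1.15, 0.0572) or replicate 2 of the rat sites of day 9 (1.24, 0.0762) was left out, and when only the 8 arrays entered the fit (adjusted p = 0.0814).

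Day 7 only was the smallest of the 3 classes. Ptprn, a secretory granule protein gene, read 853.4 and 806.4 in mouse sites and 45.2 and 88.6 in rat sites of day 7, then 194.8 and 233.1 and 275.4 and 339 on day 9 (3.29 ± 0.53). Eno2, a glycolytic enolase, read 928.7 and 1071.7 against 152 and 147.5 on day 7 and 394.8 and 295.6 against 428.6 and 429.5 on day 9 (2.63 ± 0.21). Ankrd37, a hypoxia-induced ankyrin gene, had 2.54 ± 0.37. In all 3, mouse sites fell and rat sites rose until the groups differed by less than the test could call. Gadd45g, a stress-response gene, took another path. Mouse sites had no called change, at 4963.7 and 4998.8 and then 5842.1 and 4397.5, while rat sites went from 988 and 940.3 to 6014.7 and 5508.6 (2.48 ± 0.21). Tmem14c had 2.47 ± 0.22 and is the gene, described above, that was low in rat sites of day 7 alone.

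In the other direction Cst9, a cystatin protease inhibitor gene, read 361.3 and 282.8 against 1623.8 and 1610.7 on day 7 and at most 97.5 on day 9 (-2.35 ± 0.27). Lrrtm1, a neuronal adhesion gene, had -2.25 ± 0.27. Hsd17b1, which makes oestradiol, read 132.9 and 166.1 against 663.1 and 573.9 on day 7 and 246.3 and 250.5 against 180 and 169.4 on day 9 (-2.11 ± 0.19). Ptges, a prostaglandin E synthase, had -1.99 ± 0.30, the direction opposite to Ptgs2. Neither of the 2 other probe sets of Ptges, nor of Lrrtm1, was called. Scrn1 had -1.88 ± 0.47, a call that was lost without any 1 of 6 arrays: it was -1.38 (adjusted p = 0.0699) without replicate 2 of the mouse sites of day 7, -1.87 and -1.90 (0.0794 and 0.0754) without replicates 1 and 2 of the rat sites of day 7, -1.71 (0.0845) without replicate 1 of the mouse sites of day 9, and -1.95 and -1.81 (0.0623 and 0.0798) without replicates 1 and 2 of the rat sites of day 9. With only the 8 arrays in the fit its adjusted p was 0.0537.

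The same direction class holds only genes with a called interaction, so it does not count every difference that kept its direction on both days. It held 33 genes (0.181%), 11 with a positive (0.0605%) and 22 with a negative interaction (0.121%). Without 1 array the number was between 4 and 26, and it was 8, 5, 4 and 6 without replicates 1 and 2 of the mouse and of the rat sites of day 7, 21 without replicate 2 of the mouse sites of day 9 and 21 and 15 without replicates 1 and 2 of the rat sites of day 9. Adm, the vessel-widening peptide adrenomedullin, was lower in rat sites on both days, by less on day 9 (-2.02, then -0.70). Pdk1, a kinase that diverts pyruvate from mitochondria, showed the same (-1.99, then -0.66), while Slc39a4, a zinc importer, was higher on both (0.76, then 1.82). Crabp2, a retinoic acid carrier (-1.15, then -3.15), and Erv3, an endogenous retroviral gene (-0.41, then -2.35), were lower on both days and more so on day 9. Lin28a, an embryonic RNA-binding protein gene, had -0.67, then -3.43. Its day 7 signals, 38.6 and 54.5 in mouse sites and 5.9 and 10 in rat sites, were all under 57.1 and are not ranked.

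Set side by side, the gene lists differed in how far their medians moved. From day 7 to day 9 the median difference of the GTPases went from -1.56 to 2.64, that of the metallothionein list from 1.21 to -1.19 and that of the trophoblast list from 0.16 to -2.13. No test was made of the lists themselves, and lists share genes, such as Lcn2 and Krt7. Under other settings the median interaction passed 0 for 5 lists whose medians lay near it: complement and coagulation, embryo proper, endothelium, oxidative phosphorylation, and T and B cells. Other medians kept their sign but moved by over 1.5 times under some setting. They ranged from 0.66 to 1.24 for the immediate early list, from 0.52 to 1.54 for MHC class II, from 0.28 to 0.65 for macrophages and from -0.94 to -0.51 for embryonic blood. The range was -0.73 to -0.36 for the yolk sac list, 0.14 to 0.54 for hormone receptors and their targets, 0.10 to 0.25 for heat shock and -0.24 to -0.05 for the cell cycle. Among the genes named by rule and called, no other probe set was called in the opposite direction. Besides the genes for which this was stated, Lin28a, Lamc1, Pfkfb3, Nr4a3, Hspb8, Fkbp5, Cyp11a1, Mt1, Hoxa10, Kcnmb1, Scrn1 and Rrm1 had other probe sets of which none was called.

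**Figure D5:**
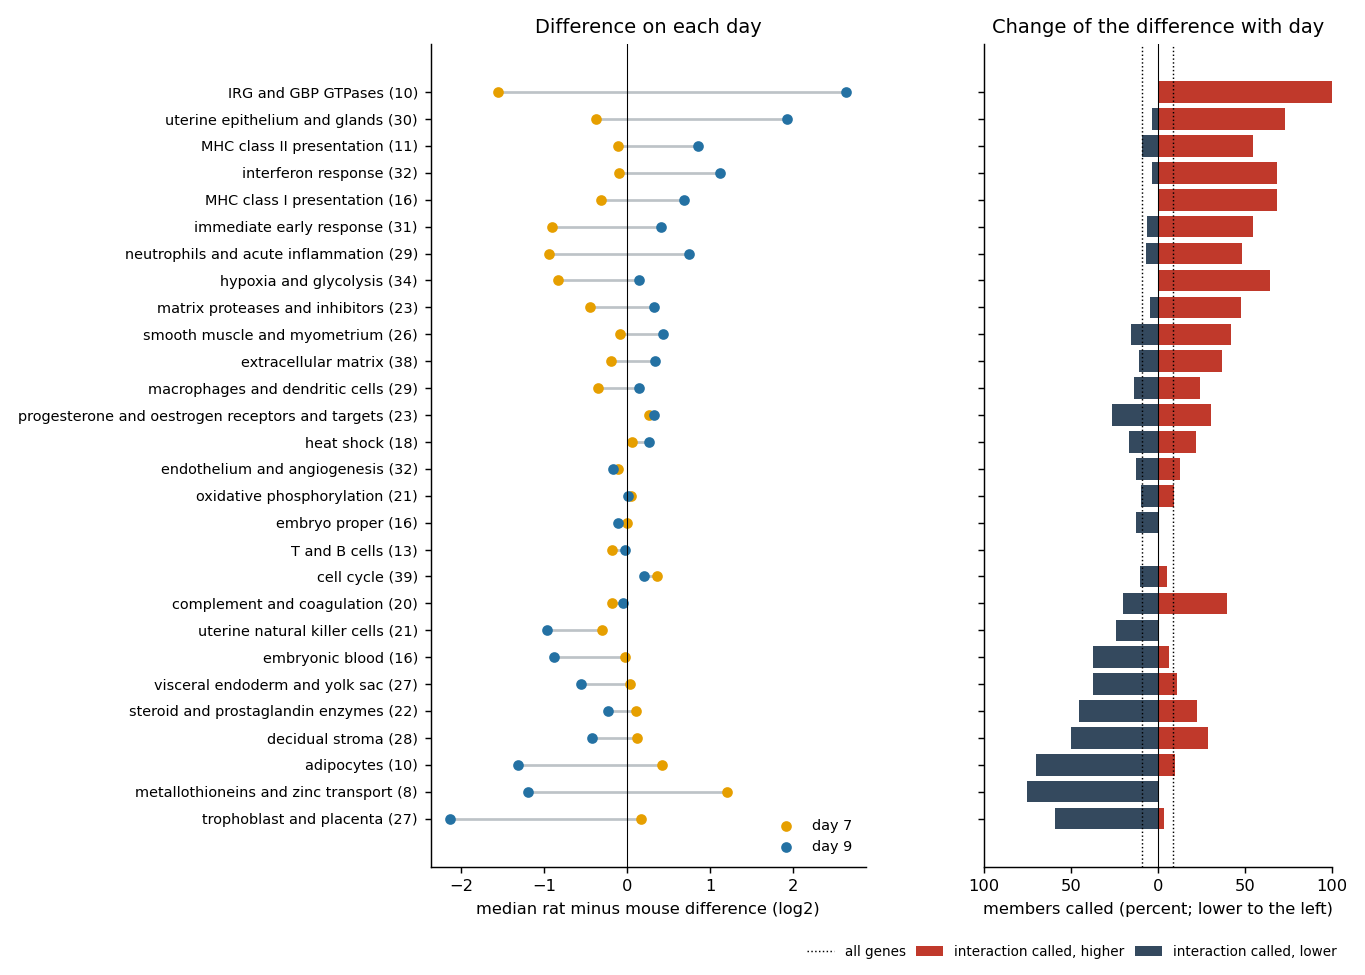
Left: median rat minus mouse difference (log2) of each gene list on day 7 and day 9, with the number of measured genes in brackets. Right: percent of each list's genes with a called interaction, higher to the right and lower to the left, and dotted lines at 8.71% and 8.91% for all genes. IRG and GBP GTPases reach 100% to the right, and trophoblast genes extend farthest from 0 on day 9 among the lists that lost.

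Levels of the reversed genes were also compared across the days. Of the 148 reversed from lower to higher, 125 lay within 1 log2 unit between mouse sites of day 9 and rat sites of day 7, against 91.6% of all genes, and 49 were called between these groups (20.5% of all genes). Between rat sites of day 9 and mouse sites of day 7, 89 lay within 1 unit, against 91.3% of all genes, and 82 were called (22.3%). Of the 89 reversed from higher to lower, 58 lay within 1 unit and 54 were called between mouse sites of day 9 and rat sites of day 7, and 59 lay within 1 unit and 54 were called between rat sites of day 9 and mouse sites of day 7. In all 4 counts a smaller share of the reversed genes than of all genes lay within 1 unit. The reversed genes were chosen from these same arrays for differences of at least 1 on both days. The smaller shares can follow from that choice, so no conclusion is drawn from them. Rat sites after co-transfer are given as a description, since their comparisons share arrays with the ones above. On day 7 they lay within 1 unit of rat sites for 145 of the 148 genes (99.4% of all genes) and on day 9 within 1 unit of mouse sites for 139 (97.4%). For the 89 genes reversed from higher to lower the numbers were 89 and 78. Mmp13 read 5.5 to 39.6 in rat sites after co-transfer on day 7 and 90.9 and 82.9 on day 9, and Mt4 5997.5 to 6093.5 and then 6995.6 and 7008.1. Of the genes lower on day 9 only, Prl4a1 read 40.9 and 27.6 and Hba-x 94.3 and 22.3 in rat sites of day 9 after co-transfer, far below mouse sites of that day.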

How the data were processed

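RNA was measured on 13 arrays of 6 groups. Each deposited value is a linear intensity computed by the authors with MAS5, as the labels and the submitters' processing notes say, and every array's mean without its lowest and highest 2% was already 500. Medians ran from 141.4 to 204.6. Values were transformed to log2(signal + 57.1) and fitted as 6 group means with limma 3.58.1 in R 4.3.3 (lmFit, contrasts.fit, eBayes), with 7 residual and 2.43 prior degrees of freedom. Tests were two-sided, adjusted over 45037 probe sets. Platform annotation gave 1 symbol for 34945 of them, several for 932 and none for 9160, and a gene was read from its brightest probe set with 1 symbol. Of 683 different genes in 28 lists, 620 were measured, 3 through a newer symbol. The script was tested on simulated data.

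The text names the 8 largest interactions in each direction among reversed genes, 5 in each class of 1 day and 3 in the same direction class, up to 3 called genes per list, and markers. Others are named as picked after their values were seen, or to account for a list. The members, lists and tests were chosen with earlier results of these data known. Replicate numbers did not pair the samples: over 6 pairs of groups, deviations of same-numbered arrays correlated between -3e-04 and 0.0826. Alternatives covered pseudocount, low-value filter, scaling, samples in the fit, prior, blocks for replicate number, hybridisation date and wash run, shared probe sets, array weights and leaving out each array.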

Additional observations from a re-analysis of the deposited data

Results flagged for a closer look

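The difference between rat and mouse sites changed between the days, by the interaction test, for 3205 genes. Among them 753 genes were called on both days in opposite directions. With both differences at least 1 in size as well, 148 were reversed from lower to higher in rat sites and 89 from higher to lower. The counts of reversed genes were 85 and 52 with a pseudocount 4 times as large. The wash run inferred from hybridisation times and embryo species cannot be told apart in this test. A signal outside the main measurement stood out as well: the control probe set for the middle of 18S ribosomal RNA read 6737.2 and 6209.4 in replicates 1 and 2 of the rat sites of day 9, above the 522.4 to 1933.1 of all other arrays.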

How the results depend on the processing

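Of 105 called genes named by rule, 101 kept their call and direction under all 20 alternatives that gave a value. The exceptions were Crabp2 (adjusted p = 0.068 with a pseudocount of 16), Kcnmb1, Scrn1 and Uqcrc1. None of these genes and none of the counts reversed, while 5 list medians near 0 changed sign. Counts over genes moved by over 1.5 times in the following cases. With a pseudocount 4 times as large there were 85 and 52 reversed genes (lower to higher, higher to lower), 144 higher on day 9 only, 29 and 22 in day 7 only (positive, negative) and 67 in the same direction. With a pseudocount of 16 there were 21 in the same direction. Under the low-value filter 2802 genes were called on day 7 and 85 lay in the same direction; with a trended, robust prior these were 2651 and 84, and with only the 8 arrays in the fit 971 and 8. Centring on the median gave 87 and 43 in day 7 only. Without shared probe sets 3881 probe sets were called and 20 genes lay in the same direction. The replicate block, for numbers that do not pair the samples, gave 5156 called probe sets and 19 genes in the same direction. Leaving out 1 array gave 4180 to 5252 probe sets and 2342 to 2899 genes called, 1167 to 1473 higher and 1175 to 1426 lower, 769 to 1774 on day 7 and 2222 to 3027 on day 9. It gave 126 to 142 and 71 to 95 reversed, 204 to 283 and 325 to 372 in day 9 only, 40 to 57 and 47 to 64 in day 7 only and 4 to 26 in the same direction. Dim genes are limited by the pseudocount. Wash run as a fixed block could not be fitted with the interaction. As a random block, with an estimated correlation of -0.0837, it gave 6319 called probe sets. Each of the 4 groups lay within 1 inferred run. That fit therefore cannot tell run and embryo species apart, and no conclusion is drawn from it.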

Other observations

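Genes of cell division and of mitochondrial respiration were called at shares of 15.4% and 19%, near the 17.6% of all genes. Of 39 cell cycle genes, 4 had a called negative and 2 a called positive interaction (median -0.13), and 23 of them fell in rat sites from day 7 to day 9, against 11.7% of all genes, and 16 fell in mouse sites, against 12.7%. Rrm2, a subunit of ribonucleotide reductase, which makes the building blocks of DNA, read 16080.9 and 16136.6 in mouse sites and 21373.9 and 21841 in rat sites of day 7. On day 9 it read 23578.6 and 26658.7 in mouse sites and 6882.4 and 6633.1 in rat sites, so rat sites of day 9 were the lowest group (interaction -2.31 ± 0.16). Its partner Rrm1 had -1.35 ± 0.17, and the cyclin gene Ccne2 -1.10 ± 0.20, while Mki67 and Pcna, general markers of dividing cells, were not called. Of 21 oxidative phosphorylation genes, 2 were positive and 2 negative (median -0.05). Uqcrc2, a core subunit of respiratory complex III, was among the positive ones (1.13 ± 0.22) and Sdhb, a subunit of complex II, among the negative ones (-0.98 ± 0.14). Uqcrc1, the other core subunit of complex III, had -0.65 ± 0.15, a call lost without replicate 1 or 2 of the mouse sites of day 7 (-0.65 and -0.64, adjusted p = 0.0537 and 0.0576), replicate 2 of the rat sites of day 7 (-0.60, 0.0717) or replicate 2 of the rat sites of day 9 (-0.59, 0.0618), with arrays centred on the median (0.0691) and with only the 8 arrays in the fit (0.069).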
